A study of Homo sapiens with 10 samples.

Results

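Transcripts of 9 genes of iron and copper reduction, iron entry, storage and export were followed in lung cancer cells treated with siRNA against mutant p53. They are the metalloreductase genes STEAP1, STEAP2, STEAP3 and STEAP4, the iron entry genes TFRC and SLC11A2, the ferritin genes FTH1 and FTL, and the exporter gene SLC40A1. They were chosen by name, with earlier results of these data known. Each Ensembl ID that maps to 1 of these symbols was taken, which gave 9 of the 57736 genes in the count table, 1 ID per gene. All 9 passed the filter on low counts that left 17978 genes for testing.

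The samples were 10 bulk RNA-seq libraries of 3 human lung cancer lines, each line with its own p53 mutation. NCI-H2087 (p53 V157F) and NCI-H441 (p53 R158L) each had 2 libraries with p53 siRNA and 2 with control siRNA, and NCI-H2110 (p53 R158P) had 1 of each. The sample titles call the treated cells knockouts, while the protocol and the experiment label give an siRNA, and the treatment is called p53 siRNA here. A mutation and the line that carries it cannot be told apart. No label tells whether the replicates came from separate cultures, so the p-values may cover technical spread alone.

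Library totals lay between 18336672 and 25810934 counts. Epithelial marker genes, as a check of the labelled cell type, summed to between 2367 and 8914 counts per 1000000 (CPM) in each library. Fibroblast markers summed to between 12.3 and 68.2 CPM, immune markers to between 0.0855 and 7.50 CPM and endothelial markers to between 0.217 and 1.56 CPM. No marker that was found stood at 0 in all 10 libraries. In NCI-H2087 the epithelial sum was 8914 and 8822 CPM with p53 siRNA and 4035 and 3694 CPM with control siRNA. The lung lineage sum of the same libraries was 383 and 220 CPM with p53 siRNA and 953 and 1039 CPM with control siRNA. KRT18 was the largest part of the epithelial sum, at 7325 and 7238 CPM against 3348 and 3077 CPM with control siRNA. SFTPA1 was the largest part of the lung lineage sum in the controls, at 584 and 641 CPM, and had 115 and 23.8 CPM with p53 siRNA. The other markers of each set moved the same way as its sum. In NCI-H441 the epithelial sum was 5657 and 6693 CPM with p53 siRNA and 4413 and 4166 CPM with control siRNA. There EPCAM overlapped between the arms, at 325 and 299 CPM against 321 and 312 CPM, and the other epithelial markers were higher with p53 siRNA. In NCI-H2110 the lung lineage sum was 28.0 CPM with p53 siRNA and 56.6 CPM with control siRNA. Nearly all of it was NKX2-1, at 27.0 CPM with p53 siRNA and 55.2 CPM with control siRNA. The part of these shifts in the changes given here was not tested.

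Cells take up most iron as ferric iron bound to transferrin. The transferrin receptor carries it into endosomes, where a ferrireductase such as STEAP3 reduces it and DMT1 moves ferrous iron into the cytosol. Ferritin, a shell of heavy and light chains, stores what is not used, and ferroportin exports it. Iron regulatory proteins bind hairpins called iron-responsive elements in the mRNAs of several of these genes. With little iron they hold back translation of ferritin and ferroportin mRNA from the 5′ end and protect transferrin receptor mRNA from decay at the 3′ end. In STEAP proteins a membrane domain binds haem and passes electrons to iron or copper, and STEAP1 lacks the NADPH-binding domain of the other members.

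The hairpins are printed because they are the stretch of RNA by which these mRNAs are known to be tied to cellular iron. They were searched in GENCODE 29 transcripts as the motif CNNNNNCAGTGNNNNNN, read on the transcribed strand only, in which the 5 bases before CAGTG must pair with the last 5, with G to T pairs allowed. Capitals mark the unpaired C and the CAGTG of the loop, and DNA letters are used throughout. TFRC (chromosome 3, minus strand) had 4 in its 3′ UTR, at positions 3394 to 3410, 3798 to 3814, 3863 to 3879 and 3910 to 3926 of transcript TFRC-201. FTH1 (chromosome 11, minus strand), FTL (chromosome 19, plus strand) and SLC40A1 (chromosome 2, minus strand) had 1 each in the 5′ UTR, at positions 65 to 81 of FTH1-201, 41 to 57 of FTL-201 and 205 to 221 of SLC40A1-201.
TFRC, the first: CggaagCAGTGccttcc
TFRC, the second: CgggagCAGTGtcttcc
TFRC, the third: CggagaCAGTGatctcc
TFRC, the fourth: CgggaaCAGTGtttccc
FTH1: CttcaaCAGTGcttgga
FTL: CttcaaCAGTGtttgga
SLC40A1: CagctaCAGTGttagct
The ferritin hairpins differ from each other in the base after CAGTG alone. Such a hairpin was found in the 5′ UTR of 36 of 19043 genes (0.189%) and in the 3′ UTR of 132 of 19146 genes (0.689%). A match describes letters and shows no binding, and its absence from the other members says only that these letters are not in the windows searched.

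In NCI-H2087, STEAP1 and FTL rose and STEAP4 fell with p53 siRNA, and the other 6 genes did not pass the test. A gene is called when its adjusted p from edgeR's quasi-likelihood test over all 17978 genes is under 0.05, and changes are log2 fold changes of p53 siRNA over control siRNA with their SE. The 3 of 9 called, 2 higher and 1 lower, compare with 8.68% of all genes tested in that line, 4.98% higher and 3.69% lower. Since the genes and lists were chosen with earlier results of these data known, such shares, here and below, are description only. The median change of the 9 was 0.47 and that of all genes was −0.03. In NCI-H2087 the libraries of the arms did not overlap for 8 of the 9 genes, 5 of them higher and 3 lower with p53 siRNA, against 55.9% of all genes, 25.4% higher and 30.4% lower. In bulk RNA, fewer cells that express a gene and less of its RNA per cell cannot be told apart.

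**Figure D1:**
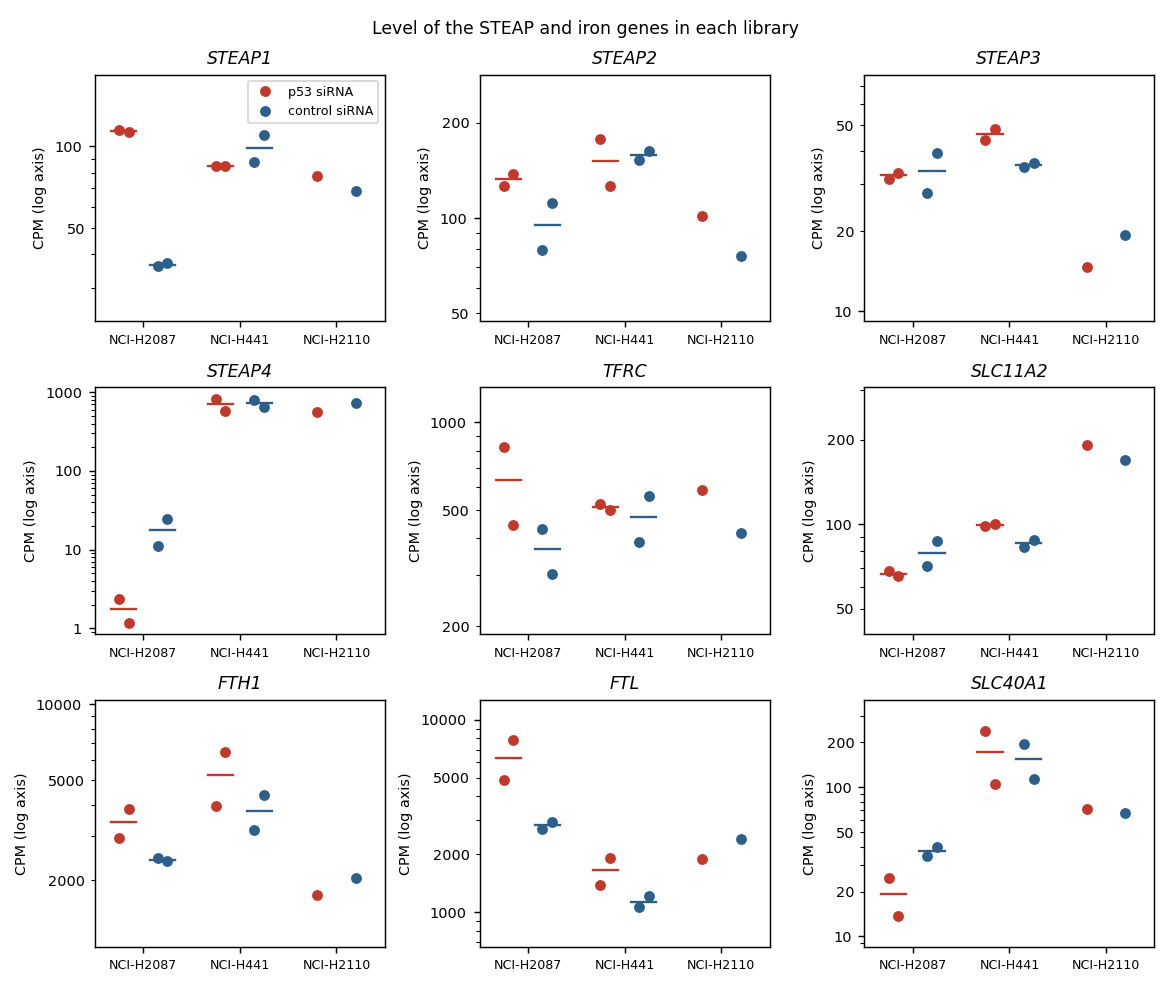
Level of each of the 9 genes in every library, in CPM on a log axis, with p53 siRNA left of control siRNA within each line 1 point per library and a short line at the mean of 2. STEAP1 with p53 siRNA stands at 115 and 113 CPM in NCI-H2087, above 36.4 and 37.0 CPM with control siRNA, while STEAP4 is at 2.39 and 1.18 CPM, below 11.0 and 24.8 CPM.

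STEAP1, a plasma membrane member of the family first found in prostate tumours, had 115 and 113 CPM with p53 siRNA and 36.4 and 37.0 CPM with control siRNA in NCI-H2087. The replicates of each arm lay close together and the arms were far apart. The change was 1.63 ± 0.17 (95% interval 1.26 to 2.00, edgeR adjusted p = 0.00111), which is 3.11-fold. In NCI-H441 the gene had 84.5 and 84.4 CPM with p53 siRNA and 87.8 and 110 CPM with control siRNA. The p53 siRNA libraries there were a little lower without overlap, and the change of −0.23 ± 0.16 did not pass the test (95% interval −0.59 to 0.13, edgeR adjusted p = 0.933). In NCI-H2110 the pair of libraries gave 77.6 CPM with p53 siRNA and 68.2 CPM with control siRNA. NCI-H2087 thus lay above every library of the other lines with p53 siRNA and below all of them with control siRNA.

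STEAP4, a metalloreductase induced by inflammatory signals in fat and epithelium, moved the other way. In NCI-H2087 it had 2.39 and 1.18 CPM with p53 siRNA, from 56 and 28 counts, and 11.0 and 24.8 CPM with control siRNA, from 214 and 659 counts. The arms did not overlap, and within each arm the replicates differed more than those of STEAP1 did. STEAP4 fell by 3.33 on the log2 scale, with an SE of 0.44 (95% interval −4.32 to −2.35, edgeR adjusted p = 0.00279). Without p53 siRNA replicate 1 the change was −3.93, without control replicate 2 it was −2.61, and the call held without any 1 library. In NCI-H441 the gene had 829 and 578 CPM with p53 siRNA and 797 and 648 CPM with control siRNA. Those arms overlapped, and the change of −0.04 ± 0.35 had a 95% interval of −0.83 to 0.76 (edgeR adjusted p = 1). In NCI-H2110 STEAP4 was at 558 CPM with p53 siRNA and 739 CPM with control siRNA, a log2 ratio of −0.40 with no replicate.

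STEAP2, which cycles between the Golgi and the plasma membrane, had 127 and 138 CPM with p53 siRNA and 79.6 and 111 CPM with control siRNA in NCI-H2087. The arms were apart, but by little against the spread of the controls, and the change of 0.47 ± 0.21 did not pass (edgeR adjusted p = 0.201). With a replicate block, in which libraries of the same line and replicate number are fitted as a pair, it was 0.49 and passed (edgeR adjusted p = 0.0331). STEAP3, the ferrireductase of transferrin endosomes in red cell precursors, had 31.5 and 33.2 CPM with p53 siRNA and 27.9 and 39.4 CPM with control siRNA. It was the 1 gene of the 9 whose arms overlapped in NCI-H2087, with a change of −0.06 ± 0.20 (95% interval −0.50 to 0.38). In NCI-H441 STEAP3 had 44.1 and 48.4 CPM with p53 siRNA and 34.7 and 36.0 CPM with control siRNA, and the change of 0.39 ± 0.20 did not pass. STEAP2 in NCI-H441 had 178 and 126 CPM with p53 siRNA around 152 and 163 CPM with control siRNA.

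STEAP1 has a near-copy, STEAP1B, whose reads could be split with it. STEAP1B had 13.1 and 9.89 CPM with p53 siRNA and 5.93 and 3.84 CPM with control siRNA in NCI-H2087, where it also rose (1.24 ± 0.32, edgeR adjusted p = 0.0413). That call was lost in 6 of the 8 fits that left out 1 library: those without either p53 siRNA replicate (edgeR adjusted p = 0.149 and 0.0686) or either control replicate (0.0898 and 0.291) of NCI-H2087, or either control replicate of NCI-H441 (0.0654 and 0.0628). It was also lost with libraries scaled by their totals (edgeR adjusted p = 0.0591). In NCI-H441 STEAP1B had 1 and 0 counts with p53 siRNA and 2 and 2 with control siRNA, although STEAP1 had at least 2046 counts in each of those libraries. STEAP1B made up 8.05% to 14% of the summed counts of the pair in NCI-H2087 and at most 0.0977% in NCI-H441. With the pair summed, the change in NCI-H2087 was 1.59 (edgeR adjusted p = 0.00121).

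Iron entry gave no call in NCI-H2087. TFRC, the transferrin receptor, had 824 and 446 CPM with p53 siRNA and 433 and 301 CPM with control siRNA. Replicate 1 was the higher in both arms, and the arms were separated by the small gap between 446 and 433 CPM. The change of 0.79 ± 0.30 did not pass (edgeR adjusted p = 0.132). With the replicate block it was 0.75 and passed (edgeR adjusted p = 0.00245), and without p53 siRNA replicate 2 it was 1.17 (edgeR adjusted p = 0.0471), while without p53 siRNA replicate 1 it was 0.28 (edgeR adjusted p = 0.581). In NCI-H441 TFRC had 525 and 501 CPM with p53 siRNA between the 389 and 558 CPM of the control libraries. In NCI-H2110 it had 588 CPM with p53 siRNA and 416 CPM with control siRNA. SLC11A2, which encodes DMT1, had 68.3 and 65.2 CPM with p53 siRNA and 71.0 and 86.9 CPM with control siRNA in NCI-H2087. Its change of −0.24 ± 0.16 did not pass, and neither did that of 0.21 ± 0.16 in NCI-H441.

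The light chain of ferritin rose in NCI-H2087. FTL, whose product helps to form the iron core, had 4836 and 7887 CPM with p53 siRNA and 2699 and 2946 CPM with control siRNA. Both treated libraries were above both controls, replicate 2 by the more. The change was 1.17 ± 0.24 (95% interval 0.63 to 1.72, edgeR adjusted p = 0.0187), or 2.25-fold. This call was lost without p53 siRNA replicate 2 (0.78, edgeR adjusted p = 0.0842), without control replicate 1 (1.12, edgeR adjusted p = 0.128) and without control replicate 2 (1.25, edgeR adjusted p = 0.123). FTH1, whose product oxidises ferrous iron, had 2953 and 3839 CPM with p53 siRNA and 2449 and 2379 CPM with control siRNA. Its arms were apart too, but the change of 0.49 ± 0.25 did not pass (edgeR adjusted p = 0.258), and with the replicate block it was 0.48 and did (edgeR adjusted p = 0.0177).

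In NCI-H441 FTL had 1382 and 1918 CPM with p53 siRNA and 1058 and 1210 CPM with control siRNA. These arms did not overlap, and the change of 0.54 ± 0.24 had an unadjusted p of 0.0493 (edgeR adjusted p = 0.933). FTH1 had 3943 and 6497 CPM with p53 siRNA around the 4348 CPM of the higher control, the other being at 3170 CPM. In NCI-H2110 both ferritin genes were lower with p53 siRNA, FTL at 1885 against 2387 CPM and FTH1 at 1739 against 2044 CPM, with no replicate.

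Ferritin has many processed copies in the genome. The 25 FTH1 pseudogenes in the table held 0.692% to 1.12% of the summed counts of gene and copies, and the 16 FTL pseudogenes held 0.0214% to 0.0933%. Together FTL and FTH1 took 0.726% and 1.10% of all counts with p53 siRNA in NCI-H2087, against 0.544% and 0.561% with control siRNA.

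SLC40A1, which encodes the exporter ferroportin, had 24.6 and 13.6 CPM with p53 siRNA and 34.5 and 39.8 CPM with control siRNA in NCI-H2087. Both treated libraries were below both controls. The change of −0.96 ± 0.41 did not pass (edgeR adjusted p = 0.181), and it was −1.45 without p53 siRNA replicate 1 and −0.59 without p53 siRNA replicate 2, while with the replicate block it was −1.01 and did (edgeR adjusted p = 0.00221). In NCI-H441 the gene had 240 and 106 CPM with p53 siRNA and 197 and 114 CPM with control siRNA. There replicate 1 exceeded replicate 2 in both arms and the arms overlapped, with a change of 0.15 ± 0.40. In NCI-H2110 the values were 71.2 CPM with p53 siRNA and 67.7 CPM with control siRNA.

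With the replicate block, 7 of the 9 genes were called in NCI-H2087, 5 higher and 2 lower, against 25.4% of all genes, 12.8% higher and 12.6% lower. The same block called none of the 9 in NCI-H441, against 0.417% of all genes. Without the block, NCI-H441 had no member called, against 0.00556% of all genes, with 1 of 9 at an unadjusted p under 0.05, against 4.43% of all genes, and none called by DESeq2 or limma-voom. Its arms did not overlap for 4 of the 9 genes, against 34% of all genes, 17% in each direction. STEAP3, SLC11A2 and FTL were the 3 higher with p53 siRNA and STEAP1 the 1 lower. In NCI-H2110, where no test was run because each arm has 1 library, 0 of the 9 passed 2-fold, against 1.49% of 12385 genes, and the log2 ratios ran from −0.40 for STEAP4 to 0.50 for TFRC.

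**Figure D2:**
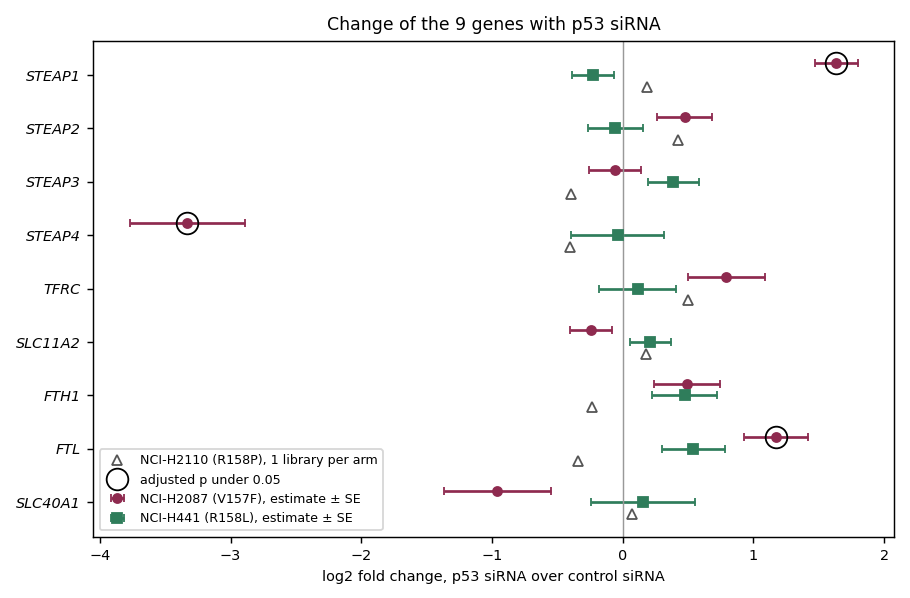
Log2 fold change of p53 siRNA over control siRNA for each of the 9 genes, 1 row per gene, with NCI-H2087 and NCI-H441 as edgeR estimates with bars of 1 SE, NCI-H2110 as a single ratio, and a circle around each call. In NCI-H2087 STEAP1 lies at 1.63 and STEAP4 at −3.33, whereas in NCI-H441 they lie at −0.23 and −0.04.

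The response of NCI-H2087 minus that of NCI-H441 passed the test for 2 of the 9 genes, against 0.412% of all genes. It was 1.86 ± 0.23 for STEAP1 (95% interval 1.35 to 2.37, edgeR adjusted p = 0.0227) and −3.29 ± 0.56 for STEAP4 (95% interval −4.55 to −2.03, edgeR adjusted p = 0.0465). By this test, with 2 libraries per arm, the responses of STEAP1 and STEAP4 to p53 siRNA differed between these lines. For both genes the call held in 1 of 8 fits that left out 1 library, that without p53 siRNA replicate 1 of NCI-H2087. In the other 7 the adjusted p was between 0.0522 and 0.17 for STEAP1 and between 0.0572 and 0.209 for STEAP4. The difference stayed between 1.69 and 2.05 for STEAP1 and between −3.89 and −2.56 for STEAP4 across the 8. Each of these fits leaves 1 library in a group. Those that lost the calls also called fewer genes over the whole table than the fit with all libraries. Why the calls were lost was not tested. For FTL the difference was 0.63 ± 0.34 and for FTH1 0.02 ± 0.35, and neither passed. That of SLC40A1 was −1.11 ± 0.57 (edgeR adjusted p = 0.441), and with the replicate block it was −1.10 and passed (edgeR adjusted p = 0.0237). The block thus called 3 of the 9 for the difference, against 8.92% of all genes. Without the block, leaving out 1 library at a time gave a difference of −1.60 to −0.41 for SLC40A1, with −1.60 without p53 siRNA replicate 1 of NCI-H2087 and −0.41 without p53 siRNA replicate 1 of NCI-H441, and none of these fits called it.

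The average change over the 3 lines was estimated from a model with line and siRNA as terms, which does not ask whether the lines change alike. No member was called, against 0.395% of all genes, and 3 of the 9 had an unadjusted p under 0.05, against 14.2% of all genes. The average was 0.62 ± 0.23 for FTL (edgeR adjusted p = 0.25), which was lower with p53 siRNA in NCI-H2110. It was 0.46 ± 0.20 for TFRC and −1.20 ± 0.51 for STEAP4 (edgeR adjusted p = 0.322 and 0.319). The STEAP4 response passed the test of the difference between lines. DESeq2 and limma-voom called none either. With no filter on low counts, 4 averages were called, against 3.83% of all genes: those of STEAP1, STEAP4, TFRC and FTL. For STEAP1 and STEAP4 these are averages over changes that differed between lines by the test of the difference. STEAP1, for instance, rose by 1.63 in NCI-H2087, while NCI-H441 gave −0.23. For FTL that difference was 0.63 and did not pass (edgeR adjusted p = 0.464). FTL was lower with p53 siRNA only in the NCI-H2110 pair, which has no replicate.

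Levels with control siRNA differed between the lines for some of the 9 genes, as they did for a large share of all genes. Between NCI-H2087 and NCI-H441, 5 of the 9 genes differed, 1 higher and 4 lower in NCI-H2087, against 42.1% of all genes, 22% higher and 20.1% lower. STEAP4 was 40.1-fold lower in NCI-H2087, at 11.0 and 24.8 CPM, than in NCI-H441, at 797 and 648 CPM (−5.32 ± 0.43, edgeR adjusted p = 1.39e-05). SLC40A1 was lower there by 2.06 on the log2 scale, with an SE of 0.42 (edgeR adjusted p = 0.00326), and STEAP1 by 1.43, with an SE of 0.16 (edgeR adjusted p = 0.000118). STEAP2 was lower by 0.73 ± 0.21 (edgeR adjusted p = 0.0214), a call lost without control replicate 1 of NCI-H2087 (edgeR adjusted p = 0.163) and without control replicate 1 or 2 of NCI-H441 (edgeR adjusted p = 0.0593 and 0.11). FTL was higher in NCI-H2087 by 1.32 ± 0.24 (edgeR adjusted p = 0.00208). FTH1 was at −0.64 ± 0.25 and did not pass (edgeR adjusted p = 0.066).

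The order of the lines in control cells differed by gene. STEAP4 was lowest in NCI-H2087, and the 739 CPM of NCI-H2110 lay between the 797 and 648 CPM of NCI-H441. From low to high, ferroportin had 34.5 and 39.8 CPM in NCI-H2087, 67.7 CPM in NCI-H2110 and 197 and 114 CPM in NCI-H441. For SLC11A2 the NCI-H2110 library was the highest at 169 CPM, and the 71.0 and 86.9 CPM of NCI-H2087 overlapped the 83.3 and 88.0 CPM of NCI-H441. STEAP3 was lowest in NCI-H2110 at 19.3 CPM, and NCI-H2087 and NCI-H441 overlapped.

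Ratios of counts within a library do not depend on how libraries are scaled, though they are not per transcript length, and these were chosen after the values were seen. In NCI-H2087 there were 1.64 and 2.06 FTL counts per FTH1 count with p53 siRNA and 1.10 and 1.24 with control siRNA, without overlap. NCI-H441 had 0.350 and 0.295 with p53 siRNA and 0.334 and 0.278 with control siRNA, which overlap. In each numbered pair of NCI-H441 this ratio was a little higher with p53 siRNA. In NCI-H2110 the ratio was 1.08 with p53 siRNA and 1.17 with control siRNA. TFRC counts per SLC40A1 count were 33.5 and 32.7 with p53 siRNA in NCI-H2087, against 12.5 and 7.55 with control siRNA. In NCI-H441 they were 2.19 and 4.74 with p53 siRNA and 1.98 and 4.88 with control siRNA, so that the replicate numbers differed there and the arms did not. STEAP1 counts per STEAP2 count were 0.906 and 0.816 with p53 siRNA in NCI-H2087, against 0.457 and 0.333 with control siRNA. In NCI-H441 they were 0.475 and 0.669 with p53 siRNA and 0.576 and 0.672 with control siRNA, and in NCI-H2110 0.764 with p53 siRNA and 0.901 with control siRNA. This ratio was thus higher with p53 siRNA in NCI-H2087 and lower in each numbered pair of the other lines.

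**Figure D3:**
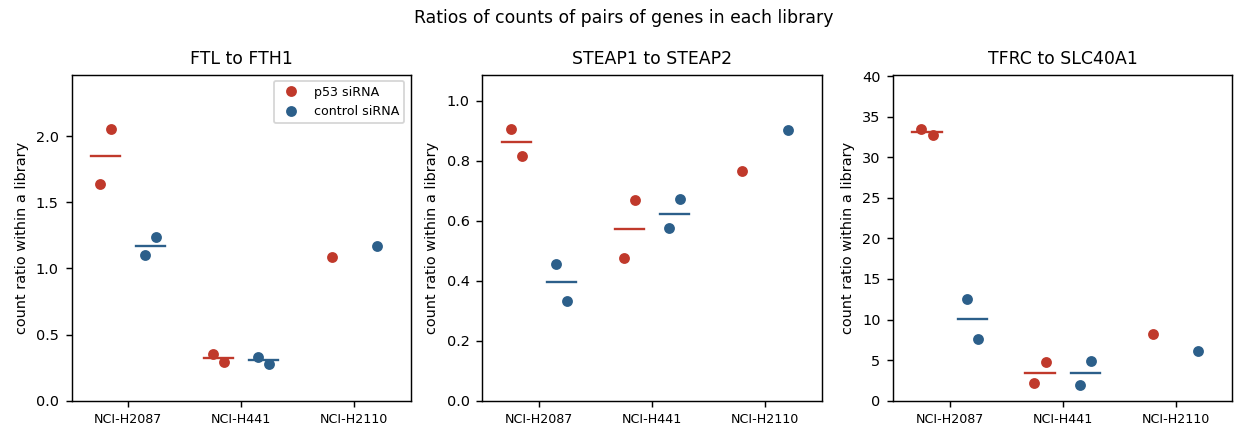
Ratio of the counts of gene pairs within each library, on linear axes from 0, with p53 siRNA left of control siRNA within each line, 1 point per library and a short line at the mean of 2. All 3 ratios are higher with p53 siRNA in NCI-H2087, where FTL to FTH1 stands at 1.64 and 2.06 against 1.10 and 1.24, and the arms overlap in NCI-H441.

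Other genes of iron and haem handling were read from a list of 50, of which 49 were found (all but NCOA4) and 41 passed the filter on low counts. In NCI-H2087, 4 of the 41 rose and 1 fell, against 8.68% of all genes, 4.98% higher and 3.69% lower. The median change of the 41 was 0.15. With the replicate block 13 rose and 5 fell, against 25.4% of all genes, 12.8% higher and 12.6% lower. In NCI-H441 none was called, against 0.00556% of all genes, and 2 had an unadjusted p under 0.05, against 4.43% of all genes. Without the block, none of the 11 mitochondrial iron and iron-sulphur genes, 5 export and hormone genes, 3 iron sensors or 2 iron chaperones was called in NCI-H2087. With it, 3 of these mitochondrial genes and 1 chaperone were called higher, and 1 export or hormone gene and 1 sensor lower. The 41 include TMPRSS6 with 0 counts in every NCI-H2087 library, HEPH with at most 2 and LCN2 with at most 6, which passed the filter through other lines and could hardly be called there.

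Of the 12 tested genes of haem synthesis, transport and breakdown, 3 rose and 1 fell in NCI-H2087, against 4.98% and 3.69% of all genes. CPOX, the coproporphyrinogen oxidase of haem synthesis, had 24.8 and 17.3 CPM with p53 siRNA and 6.81 and 6.18 CPM with control siRNA (1.70 ± 0.23, edgeR adjusted p = 0.00306). ABCG2, an efflux pump that carries porphyrins and haem besides drugs, had 39.7 and 45.9 CPM with p53 siRNA and 17.8 and 17.3 CPM with control siRNA (1.29 ± 0.17, edgeR adjusted p = 0.00293). These arms were far apart for their spread. BLVRB, a biliverdin reductase, had 32.9 and 45.7 CPM with p53 siRNA and 20.0 and 22.6 CPM with control siRNA (0.88 ± 0.24, edgeR adjusted p = 0.0493). FLVCR2, a membrane transporter of the family of the haem exporter FLVCR1, had 2.61 and 0.930 CPM with p53 siRNA and 9.69 and 9.69 CPM with control siRNA. It fell by 2.45 on the log2 scale, with an SE of 0.38 (edgeR adjusted p = 0.00569).

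All 5 calls of the list, STEAP1B included, were lost without control replicate 2 of NCI-H2087, when the adjusted p was 0.0546 for FLVCR2, 0.0566 for ABCG2, 0.0571 for CPOX, 0.202 for BLVRB and 0.291 for STEAP1B. This was the 1 alternative run that ended the calls of CPOX, ABCG2 and FLVCR2. BLVRB was also lost without p53 siRNA replicate 2 (edgeR adjusted p = 0.215) or control replicate 1 (0.229) of NCI-H2087, without either control replicate of NCI-H441 (0.0739 and 0.0769), with libraries scaled by their totals (0.0925) and with limma-voom (0.0701). In NCI-H441 ABCG2 had 21.9 and 19.9 CPM with p53 siRNA and 25.2 and 26.4 CPM with control siRNA. Its response differed between the lines by 1.59 ± 0.24 (edgeR adjusted p = 0.033), a call that held without p53 siRNA replicate 1 of NCI-H2087 and was lost without any 1 of the other 7 libraries (edgeR adjusted p between 0.0677 and 0.188). Those 7 fits also called fewer genes over the whole table than the fit with all libraries, and why the call was lost was not tested. The other 4 list genes called in NCI-H2087 did not pass the test of the difference in the fit without the block. It was 1.21 ± 0.31 for CPOX (edgeR adjusted p = 0.149) and −2.38 ± 0.51 for FLVCR2 (edgeR adjusted p = 0.0905). Both passed with the replicate block (edgeR adjusted p = 0.0092 and 0.000835), against 8.92% of all genes. They also passed with no filter on low counts (edgeR adjusted p = 0.0261 and 9.83e-06), against 2.76% of all genes. DESeq2 called both (DESeq2 adjusted p = 0.0386 and 0.003), against 2.65% of all genes, and limma-voom neither (limma-voom adjusted p = 0.186 and 0.0906).

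**Figure D4:**
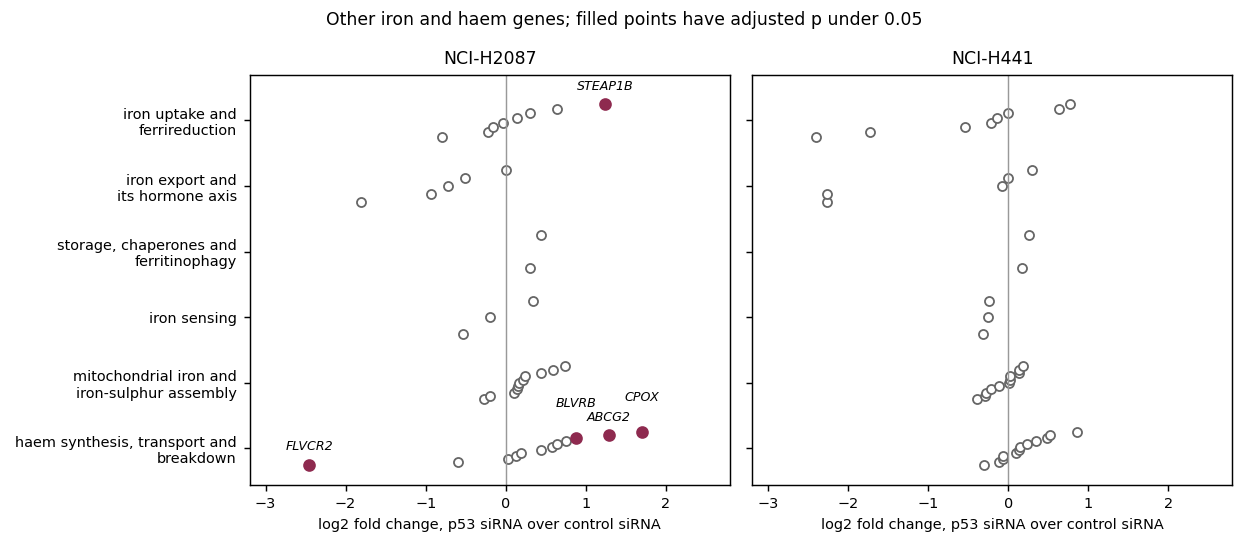
Log2 fold change of p53 siRNA over control siRNA for the 41 tested iron and haem genes, grouped by role, in NCI-H2087 (left) and NCI-H441 (right), with filled points for genes called by edgeR. The 5 filled points are all in NCI-H2087, and the points of NCI-H441 beyond −1.5 are genes with at most 7 counts in a library there.

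With control siRNA, 8 of the 41 list genes were higher and 9 lower in NCI-H2087 than in NCI-H441. Of all genes 42.1% were called, 22% higher and 20.1% lower. Of the 41, 3 had under 10 counts in every NCI-H2087 library and 4 in every NCI-H441 library. Such genes passed the filter through lines where they were higher, so a call of 1 of them between lines partly follows from the filter. CYBRD1 and LCN2 were singled out after their values were seen, and their levels are given as a description. CYBRD1, a duodenal ferrireductase, had 51.2 and 82.8 CPM with p53 siRNA and 53.4 and 96.5 CPM with control siRNA in NCI-H2087, and 183 CPM with p53 siRNA and 112 CPM with control siRNA in NCI-H2110. In NCI-H441 it had 1 and 1 counts with p53 siRNA and 7 and 5 with control siRNA, near the limit of detection. LCN2, a secreted protein that binds iron-laden siderophores, ran the other way. It had at most 6 counts in any NCI-H2087 library, while NCI-H441 had 75.4 and 81.3 CPM with p53 siRNA and 51.8 and 49.2 CPM with control siRNA.

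The genes most like each STEAP gene were found by Pearson's r of log2 CPM over the 10 libraries, among genes with a mean of at least 5 CPM. The libraries share 3 lines, so that differences between lines weigh in every r, and these values describe likeness only. STEAP1 was most like PAQR3 (r = 0.988), a Golgi protein that binds RAF kinases, followed by BMAL2 and GNPNAT1 (both r = 0.942). STEAP4 was most like the galactosyltransferase gene B4GALT1 (r = 0.991), EPB41L5 and ALDH5A1 (both r = 0.990). STEAP2 was most like the formin gene DIAPH2 (r = 0.959), APOOL (r = 0.950) and FGD6 (r = 0.945). STEAP3 was most like HILPDA, a lipid droplet protein gene induced by hypoxia (r = 0.971), CRACR2B (r = 0.969) and TCF25 (r = 0.964).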

How the data were processed

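RNA was sequenced in 10 libraries. Per the labels' protocols, the RNA came from an RNeasy Plus column and the libraries from a Lexogen mRNA kit. The deposited values are whole-number counts per Ensembl gene with no normalization, and whether they are rounded RSEM estimates is not given in the sources used here. Bowtie2, RSEM 1.2.12 and hg19 are listed, with no role or order, per the submitters' processing notes. Symbols came from a names table (51959 IDs) and GENCODE 29 (342 more), and hairpins were searched in GENCODE 29 transcripts.

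Counts were fitted in R 4.3.3 with edgeR 4.0.16 by its quasi-likelihood test, with TMM scaling and the filterByExpr filter, and each of the 6 combinations of line and siRNA had its own mean (4 residual degrees of freedom). A model with line and siRNA as terms gave the average change over the 3 lines (6 residual degrees of freedom). Tests were two-sided, with Benjamini-Hochberg adjustment across the 17978 genes. CPM are on TMM library sizes. NCI-H2110 has no test: its values are ratios of CPM on the log2 scale, with 2 added counts, for genes that reach 50 counts in 1 of its libraries. The code was tested on simulated data. The common biological coefficient of variation was 19.8%, and depth was 18336672 to 25810934 counts per library.

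Differences between replicates 1 and 2 correlated between the arms (r = 0.534 in NCI-H2087 and 0.595 in NCI-H441, over 9332 genes whose log2 CPM averaged 3 or more), so a replicate block was also fitted (2 residual degrees of freedom). Replicates were not copies of each other. Alternatives were DESeq2 1.42.0, limma-voom (limma 3.58.1), other scalings, no filter, leaving out each library in turn, each line alone, NCI-H2110 left out and near-copies summed. The text names all 9 genes, the list genes called in NCI-H2087, the 3 genes most like each STEAP gene, and near-copies. List genes not found or with few counts are also named, as are the markers KRT18, SFTPA1, EPCAM and NKX2-1 for their part in the sums. CYBRD1 and LCN2 were added after their values were seen. These genes and lists were chosen with earlier results of these data known. 1 gene is not reported here.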

Additional observations from a re-analysis of the deposited data

Results flagged for a closer look

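The responses of STEAP1 and STEAP4 to p53 siRNA differed between NCI-H2087 and NCI-H441 by a test of the difference itself. For STEAP1 the response of NCI-H2087 minus that of NCI-H441 was 1.86, made up of 1.63 in NCI-H2087 and −0.23 in NCI-H441. For STEAP4 it was −3.29, made up of −3.33 in NCI-H2087 and −0.04 in NCI-H441. Each call held in 1 of 8 fits that left out 1 library, that without p53 siRNA replicate 1 of NCI-H2087 (highest edgeR adjusted p = 0.17 for STEAP1 and 0.209 for STEAP4 in the others), and limma-voom did not call STEAP4 (adjusted p = 0.108).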

How the results depend on the processing

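The replicate block moved the genes called in NCI-H2087 to 7 and the iron list to 18, and gained SLC40A1 for the difference between lines; it changed no other call of a member. No block could be fitted to the comparison of control libraries between lines, since each pair lies within a line. With no filter on low counts the calls were 6 in NCI-H2087 and 9 in the iron list, where 9.21% of all genes were called, and 4 for the average over the 3 lines. DESeq2 called 8 of the iron list and 11.9% of all genes in NCI-H2087, and limma-voom called 1 gene for the difference, where STEAP4 was lost (adjusted p = 0.108). The cause was not tested.

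Scaling by library totals moved the median change of all genes in NCI-H2087 to −0.21, against −0.03 with TMM, and the higher share of called genes to 33.2%, against 57.4%. For the difference that share was 46.5%, against 58.1%. It kept the 3 calls of members in NCI-H2087, lost those of STEAP1B and BLVRB (edgeR adjusted p = 0.0591 and 0.0925), and turned the difference of FTH1 to −0.11 and the averages over the 3 lines of STEAP3 and SLC11A2 to −0.035 and −0.067. Without NCI-H2110 that average of SLC11A2 was −0.021. None of these turned values was called.

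Leaving out 1 library at a time gave 2 to 3 calls in NCI-H2087, 0 to 5 in the iron list, 0 to 2 for the difference and 4 to 6 between control libraries. Each of these fits leaves 1 library in a group, so the counts describe the fits and are no result about the members. With all libraries, 0.412% of all genes were called for the difference and 42.1% between control libraries. Changes that were not called turned sign in some of the fits that left out 1 library. In NCI-H2087 that of STEAP3 ran from −0.27 to 0.23. In NCI-H441 SLC40A1 ran from −0.55 to 0.63, STEAP2 from −0.32 to 0.17, STEAP4 from −0.32 to 0.20 and TFRC from −0.14 to 0.41. The difference of FTH1 ran from −0.30 to 0.42. In the average over the 3 lines STEAP3 ran from −0.013 to 0.16 and SLC11A2 from −0.017 to 0.11, and between control libraries they ran from −0.35 to 0.15 and from −0.28 to 0.014. The genes called in NCI-H2087 over the whole table numbered 177 without control replicate 2, 358 without control replicate 1, 641 without p53 siRNA replicate 2 and 1103 without p53 siRNA replicate 1, against 1560 with all libraries.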
